A study of Eutrema with 12 samples.

Results

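Of 4042 cDNA clones on the array whose names begin with cld, drt or slt, 122 (3.02%) gave a weaker signal in field-grown than in cabinet-grown leaves of Thellungiella in both field years. The members were chosen from the measured ratios. For each plant the log2 ratio of field over cabinet intensity was centred on the array median, spots and dye-swapped arrays were averaged, and a clone entered when its mean was at most -1, which is 2-fold lower, in 2003 and in 2005 with all 6 plants below 0. The ratios of field over cabinet are therefore a description of the members and not a test. The array holds 4279 cDNAs in all. The deposited files do not pair the clones with genes, so that no clone is given a gene name, a function or a sequence here, and no pathway list or tissue marker could be matched.

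Thellungiella salsuginea is a salt-tolerant relative of Arabidopsis that grows on saline soils, and the Yukon ecotype comes from a dry, cold region. Cauline leaves are the small leaves on the flowering stem. A spotted cDNA array carries inserts picked from cDNA libraries, and an abundant transcript can therefore be present as several clones with different names. A ratio below 0 means less signal from the field plant than from the cabinet plants, relative to the typical cDNA of the array. In whole leaves fewer cells of a type and less transcript per cell cannot be told apart.

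The field plants were 3 individual plants harvested in 2003 and 3 in 2005 at a Yukon site, none of them treated, and each carries a letter A, B or C within its year. The sample records call the last plant of 2005 C, whereas the design text has D. Each was compared on 2 arrays, with the dyes Cy3 and Cy5 exchanged, against cauline leaves of untreated cabinet plants of the same ecotype that were 12 weeks old and grown at a 21 h day and 22/10°C. The study describes the first harvest year as dry and the other as wet. According to the sample records, the mRNA of field plants went through 1 round of amplification and that of cabinet plants went through none, on all 12 arrays, so that amplification and field growth cannot be told apart. The sources used here leave unsaid whether the arrays of several field plants had a cabinet RNA in common. Nothing in the labels says that the field plants of a year were related or unrelated. The p-values measure the spread of the ratios between plants, which holds the cabinet channel and the arrays besides the field plants.

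Over arrays and channels, the signal of the median cDNA spot was 7.40 to 35.4 times its local background, and the number of plants a year limits the precision. The files record 4 scan days for the arrays of 2003 and 2 for those of 2005, with none shared, so that year and scan day cannot be told apart. Values below are normalized log2 ratios of field over cabinet (background-corrected, loess within each array) unless the median-centred scale of the selection is named. On the normalized scale all 122 members again lay below 0 in all 6 plants, and 116 had both year means at or below -1.

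Across the members the normalized year mean ranged from -4.05 to -0.88 in 2003, with a median of -1.72, and from -4.63 to -1.03 in 2005, with a median of -2.17. As folds, the median member was 3.30-fold lower in the field in 2003 and 4.49-fold lower in 2005. A ratio at least 4-fold lower was measured for 47 members in 2003 and 70 in 2005, and at least 8-fold lower for 13 and 30. In the limma fit across all cDNAs, 106 members passed a Benjamini-Hochberg adjusted p of 0.05 and a 1.5-fold limit as lower in 2003, against 7.31% of all cDNAs. In 2005, 117 passed, against 15.1%, and 103 passed in both years, against 4.6%. These counts follow from the selection and are given only to place the members on that scale. Without plant B of 2003 the 2003 count was 67, against 3.3% of all cDNAs. With each year fitted alone, 0 members and 0 of all cDNAs passed in 2003, and 122 members passed in 2005, against 19.3% of all cDNAs.

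**Figure D1:**
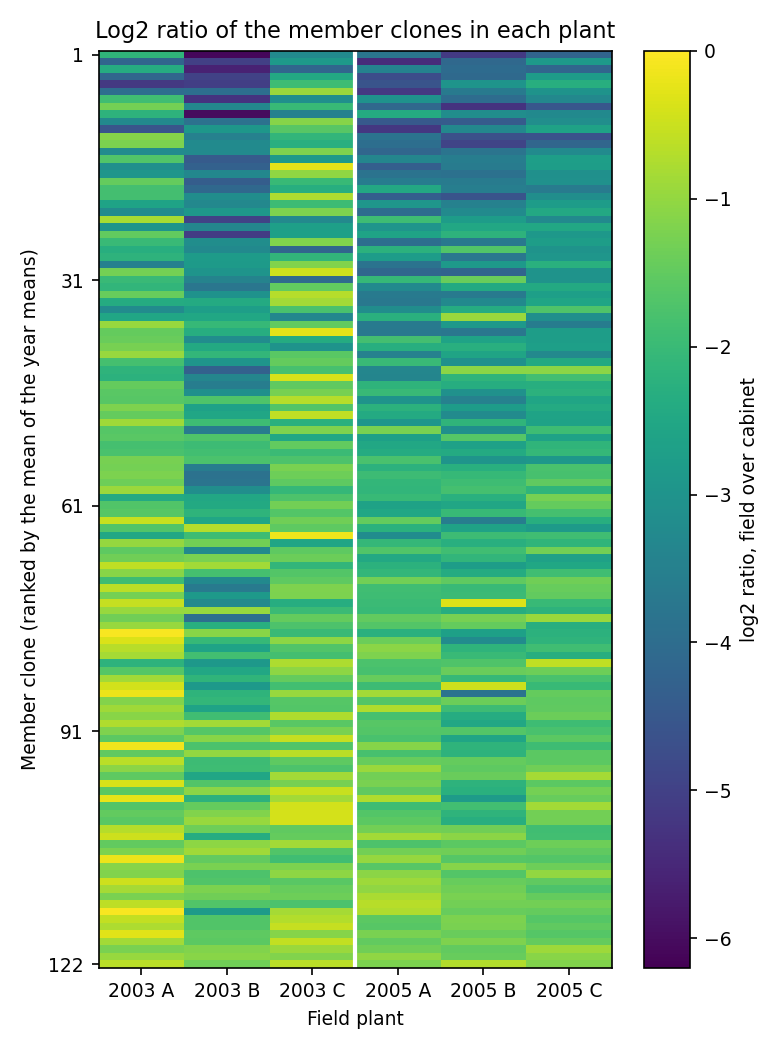
Normalized log2 ratio of field over cabinet for the 122 members (rows, lowest mean at the top) in the 6 field plants (columns, the white line parts the years). Plant B of 2003 was the darkest column of its year, with a median of -2.49 against -1.40 and -1.50 in plants A and C.

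**Figure D2:**
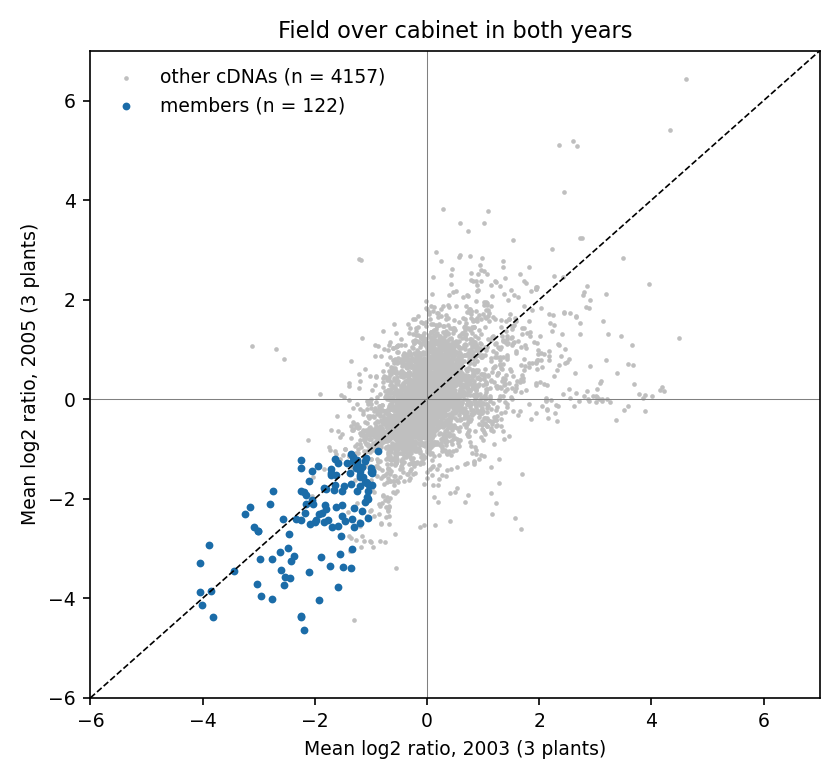
Mean normalized log2 ratio in 2003 (x axis) and 2005 (y axis), each over 3 plants, for the 122 members (blue) and the other 4157 cDNAs (grey), with the line of equal means dashed. The members lie in the lower left corner by selection, and 89 of the 122 lie below the dashed line, that is, had the lower mean in 2005.

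The 6 clones with the lowest mean of both years came from the cld, drtg and slt name series. For cld18_c09 the normalized log2 ratios were -2.14, -6.10 and -3.23 in plants A, B and C of 2003 and -3.77, -5.15 and -4.20 in those of 2005. The means were -3.82 ± 2.05 and -4.37 ± 0.71 (SD, n = 3 plants each), or 14.1-fold and 20.7-fold lower. Plant B was the lowest of both years for this clone, and the years overlapped. For cld21_a01 the ratios were -4.17, -5.02 and -2.85 in 2003 and -5.43, -4.11 and -2.87 in 2005, and for drtg3-30 they were -4.14, -4.97 and -2.45 in 2003 and -4.74, -4.07 and -2.77 in 2005. The order of the plants was the same in both clones, with B lowest in 2003, A lowest in 2005 and C highest in each year.

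For slt6_f05 the ratios were -2.37, -5.60 and -4.17 in 2003 and -3.44, -4.03 and -4.17 in 2005, with the 2003 values spread around those of 2005. For cld2_c02 they were -2.18, -6.01 and -3.48 in 2003 and -2.38, -3.16 and -3.26 in 2005. That clone was one of the minority that lay lower in 2003, with means of -3.89 ± 1.95 and -2.94 ± 0.48 (SD, n = 3), and its 2003 mean rested on plant B. For cld26_b05 they were -1.28, -3.30 and -2.02 in 2003 and -4.09, -5.29 and -4.51 in 2005, so that every plant of 2005 lay below every plant of 2003. Its 2005 mean of -4.63 ± 0.61 (SD, n = 3), or 24.8-fold lower, was the lowest of all members in that year.

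The limit of the selection cut through a continuous distribution. On the median-centred scale drt8_c09 and sltg1-84 were the last clones inside, with a higher year mean of -1.0045 and -1.0006, and drt5_b04 and sltg1-72 the first outside, at -0.9943 and -0.9866. Inside, drt8_c09 had normalized ratios of -0.75, -1.69 and -0.54 in 2003 and -1.60, -1.26 and -1.50 in 2005, and sltg1-84 had -0.29, -1.54 and -1.13 in 2003 and -1.24, -1.41 and -1.64 in 2005. Outside, drt5_b04 had -0.49, -0.99 and -1.49 in 2003 and -2.03, -2.48 and -2.19 in 2005, and sltg1-72 had -0.26, -1.06 and -2.20 in 2003 and -2.57, -3.80 and -2.54 in 2005. The clones outside were thus lower in 2005 than those inside and missed the limit in 2003 alone. At most -1 on the median-centred scale were 216 clones in 2003, 303 in 2005 and 135 in both. Of these 135, 13 were left out because a plant lay at or above 0, and in 10 of the 13 that plant was A of 2003.

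Members differed more among the 2003 plants than among the 2005 plants. The median SD of a member over 3 plants was 0.88 in 2003 and 0.46 in 2005, against 0.36 and 0.23 for the other clones of these name series. The SD was larger in 2003 for 100 of the 122 members (82%), and for 70.1% of the other clones. Plant B of 2003 held the lowest of the 3 values for 86 members and the highest for 4. The ratios of all cDNAs were also spread most widely in plant B. Their SD was 0.84, 1.23 and 0.75 in plants A, B and C of 2003 and 0.89, 1.07 and 0.96 in those of 2005. In 2005 plant B was the lowest for 57 members, A for 35 and C for 30, and the medians over members of -2.03, -2.30 and -2.10 in plants A, B and C lay closer together. The same letter was lowest in both years for 64 of the 122 members. The counts of lowest plants were not taken over all cDNAs, so that they are not read as particular to the members.

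The widest and narrowest members show the range over the plants. For drt7_a11 the ratios were -3.99, -3.97 and -0.94 in 2003 and -5.16, -3.67 and -3.004 in 2005, a range of 4.22, with plant C the highest of both years. Its field signal, averaged over the arrays, was 3.34 times the local background, no brighter than spots without a name (3.68 in the median). In plant A of 2005 its ratio was -4.35 on the median-centred scale and -5.16 on the normalized scale. The part of the background in its lowest ratios was not tested. For drt5_a06 they were -1.13, -1.26 and -1.23 in 2003 and -1.62, -1.13 and -1.37 in 2005, a range of 0.48. All 6 plants lay close together, and the means were 2.31-fold lower in 2003 and 2.59-fold lower in 2005.

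Each channel was also taken on its own, as the log2 intensity minus the array median of cDNA spots in that channel, averaged over both dyes. Members were bright in the cabinet channel and near or below the array median in the field channel, as selection on the ratio favours. The cabinet medians over members were 1.60, 1.81 and 1.56 on the arrays of plants A, B and C of 2003 and 1.45, 1.503 and 1.33 on those of 2005. The field medians were 0.13, -0.54 and -0.03 in 2003 and -0.65, -0.68 and -0.77 in 2005. Plant B of 2003 thus had the lowest field and the highest cabinet median of its year, and the field medians of 2005 were all lower than those of 2003. These channel values come from the intensities that the selection used and are a description.

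**Figure D3:**
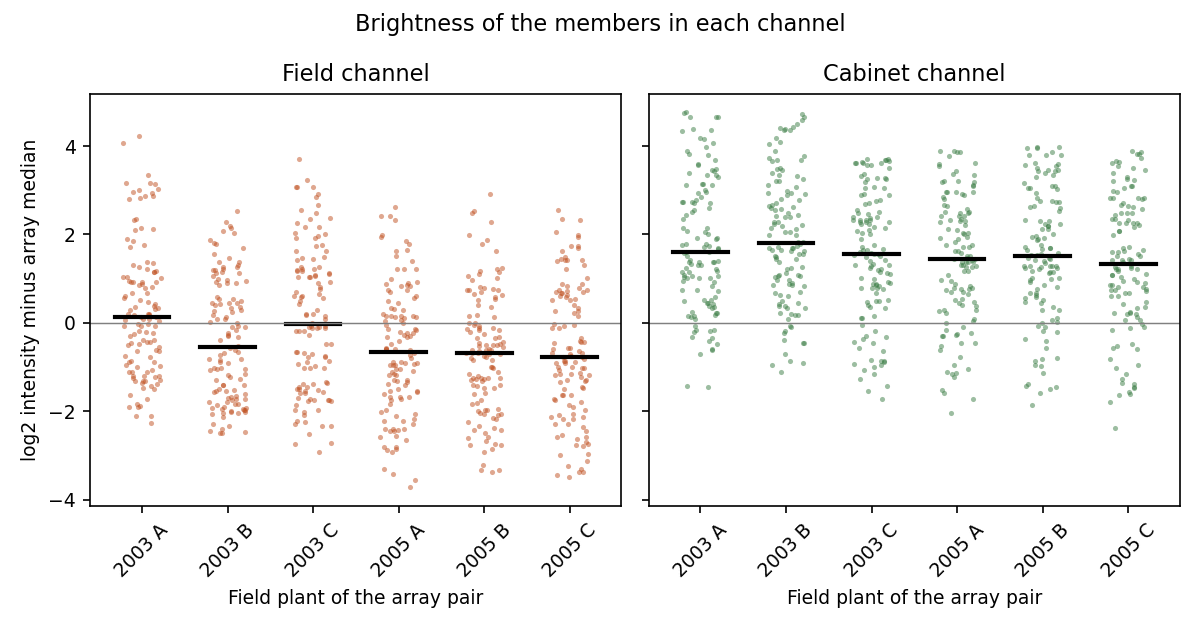
Log2 intensity minus the array median for each of the 122 members (points, with the median as a bar) in the field channel (left) and the cabinet channel (right) of each plant's 2 arrays. The cabinet medians ran from 1.33 to 1.81, and the field medians from -0.77 to 0.13.

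The likeness of plants that share a letter lay more in the cabinet channel than in the field channel. Over the 122 members, deviations from the year mean in the cabinet channel correlated between the plants of one letter at r = 0.669 (A), 0.565 (B) and 0.673 (C), and between different letters at -0.584 to -0.0937. In the field channel the same letters gave 0.258, -0.0105 and 0.25, and different letters -0.273 to 0.0455. Over all 4279 cDNAs the cabinet values were 0.521, 0.342 and 0.447, with different letters at -0.457 to 0.0254. The field values over all cDNAs were 0.231, -0.27 and 0.115, with different letters at -0.338 to 0.243. These points are clones of the same arrays and are not independent, deviations from a mean of 3 are tied to each other, and the channels of an array share its slide. For cld21_a01 the cabinet channel was 2.56, 2.29 and 0.52 in A, B and C of 2003 and 2.41, 1.95 and 0.77 in 2005, while the field channel was -1.19, -1.94 and -2.02 in 2003 and -2.56, -1.96 and -1.97 in 2005. The higher ratio of plant C in this clone thus went with a low cabinet signal in both years. The part of the cabinet RNA in the ratios of single plants was not tested.

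Several members also moved between the years in both channels. The cabinet channel was at least 4-fold lower on the 2005 arrays for 11 members and at least 4-fold higher for 3, together 11.5% of the members against 9.18% of all cDNAs. In 9 of these 14 (64.3%) the field channel moved at least 4-fold in the same direction, much as in all cDNAs, where it did so in 269 of 393 (68.4%). The sources used here do not say whether the slides of both years were printed together, so that a shift of a single channel between years may belong to the slides, the scans or the RNA, which cannot be told apart. For drtg6-67 the cabinet channel was 3.68, 3.66 and 2.33 in 2003 and -1.71, -1.49 and -1.61 in 2005, and the field channel was 2.14, 0.01 and 0.93 in 2003 and -2.87, -2.61 and -2.45 in 2005. Both channels of this clone went from above the array median to below it, without overlap between the years. For drt10_g02 the cabinet mean went from 3.68 to -0.93 and the field mean from 2.005 to -2.33, and its ratio was -1.65 in 2003 and -1.72 in 2005. In the other direction, slt4_f07 went from -0.74 to 2.15 in the cabinet and from -1.89 to 0.23 in the field. A ratio within an array takes out a shift that both channels share, and the log2 difference between years of the ratio does not tell which channel moved.

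**Figure D4:**
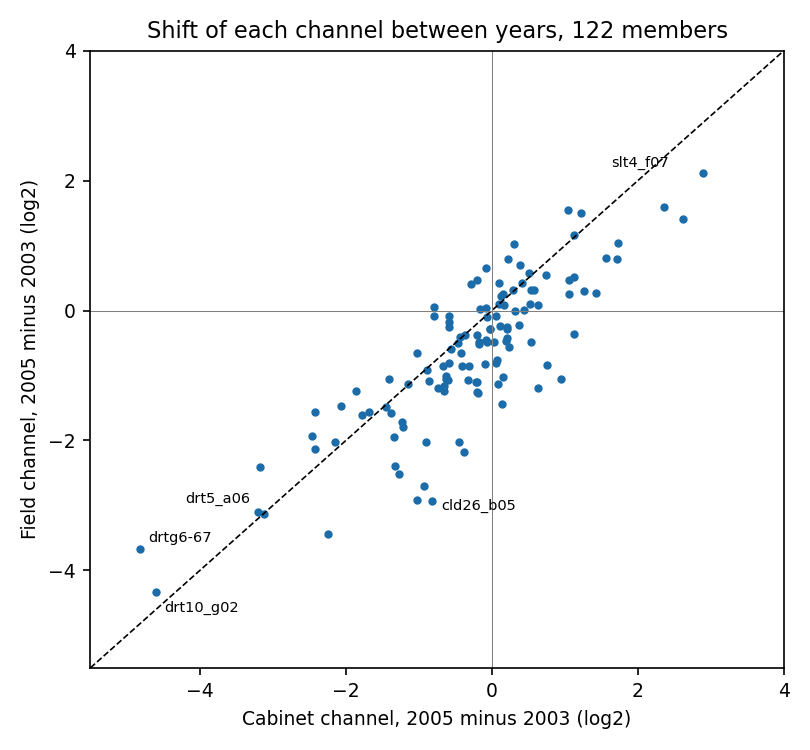
Difference of the 2005 and 2003 means of each channel for the 122 members (log2, cabinet on the x axis, field on the y axis), with the line of equal shifts dashed. The points run along the line, from -4.82 and -3.67 for drtg6-67 to 2.89 and 2.11 for slt4_f07, and cld26_b05 lies below it.

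The difference between the field years is drawn from the same plant values as the selection, which set a limit on each year mean. More clones lay at or below -1 in 2005 (303) than in 2003 (216), and a member near the limit in 1 year could only be lower in the other, so that the direction of the difference among members is tied to the selection and is a description. The difference ran from -2.43 to 1.02 over the members with a median of -0.39, against -0.02 over all cDNAs. In the limma fit, 0 members passed the adjusted p of 0.05 and the 1.5-fold limit, against 1.59% of all cDNAs (0.818% lower in 2005 and 0.771% higher). At an unadjusted p of 0.05, 24 members (19.7%) passed, against 27.2% of all cDNAs, and the 24 were lower in 2005, as were 14.5% of all cDNAs against 12.7% that were higher. In 21 members every 2005 plant lay below every 2003 plant, against 17.9% of all cDNAs, and in 1 every 2003 plant lay below every 2005 plant, against 16.8%. With the plant letter as a replicate block, 11 members (9.02%) passed, against 8.25% of all cDNAs, and the 11 were lower in 2005. The labels do not give this pairing, which was read from the same data, so that p-values with the block carry that limit. Without plant B of 2003, 4 members (3.28%) passed, against 2.13%, and without plant C of 2003, 2 (1.64%) passed, against 3.69%. The shares that passed with the block, or without plant B or C of 2003, were near those of all cDNAs. Members higher in 2005 were rarer than such clones among all cDNAs, a direction that is tied to the selection.

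The most negative differences belonged to cld26_b05, at -2.43 ± 0.55 (SE, limma adjusted p = 0.0645, 0.0203 with the block), and drtg5-79, at -2.19 ± 0.67 (SE, limma adjusted p = 0.107, 0.042 with the block). For drtg5-79 the ratios were -1.30, -2.995 and -0.47 in 2003 and -4.12, -4.19 and -3.01 in 2005, with all of 2005 below all of 2003. For cld26_b05 the field channel was 2.11, 1.05 and 1.76 in 2003 and -1.16, -1.40 and -1.28 in 2005, and the cabinet channel was 3.57, 4.37 and 3.63 in 2003 and 2.64, 3.49 and 2.99 in 2005. Its field signal thus differed more between the years than its cabinet signal. In the median over all 122 members the field channel differed by -0.49 and the cabinet channel by -0.17 between the years, and over all cDNAs by -0.14 and -0.15. The cabinet channel of drtg5-79 was at the scanner maximum in 3 of 18 spot readings in 2003 and 8 in 2005, and that of cld26_b05 in 3 and 0. Of the 11 members that passed with the block, 5 had such a reading, against 12 of all 122 members.

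The most positive differences did not pass under any setting tried. They belonged to drtg6-67, at 1.02 ± 0.69 (SE, limma adjusted p = 0.376), and slt14_h09, at 1.00 ± 0.61 (SE, limma adjusted p = 0.338). For drtg6-67 the ratios were -1.34, -3.95 and -1.47 in 2003 and -1.49, -1.27 and -0.93 in 2005, and the lower 2003 mean rested on plant B. For slt14_h09 they were -1.996, -3.42 and -4.06 in 2003 and -2.05, -1.43 and -3.01 in 2005, with overlapping years.

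Many members had nearly the same profile over the plants as another member. Pairs of members were compared by the root mean square (RMS) difference of their 6 normalized ratios, and sets were formed in which no pair differed by more than 0.3, or 1.23-fold. This limit was chosen after the values were seen, and the sets have no test. Like profiles were not counted over all cDNAs, so that the likeness is not read as particular to the members. The median pair of members differed by 1.19, and the 2 arrays of a plant lay on either side of their mean by an RMS of 0.20 in the median member. At the limit, 52 members fell into 22 sets, 16 of 2 clones, 5 of 3 and 1 of 5, and 18 of the 22 sets held clones of more than 1 name series. With limits of 0.2 and 0.4 there were 8 sets with 20 members and 33 sets with 83. The files do not say whether the clones of a set hold the same transcript.

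The set of 5 held drt10_h04, drtg4-69, drt14_h06, cld26_g11 and drtg4-35. Their normalized ratios had medians of -1.56, -1.08 and -0.53 in plants A, B and C of 2003 and -1.66, -2.27 and -1.31 in those of 2005. It departed from most members in 2003, where plant A and not B was the lowest. Over the 5 clones the ratio stayed between -1.59 and -1.49 in plant A of 2003 and between -2.55 and -2.18 in plant B of 2005, while their cabinet signal ranged from 58.1 to 129 times the background.

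The lowest set of 3 joined cld26_b05 with cld26_a05 and cld25_d06, with medians of -1.22, -3.30 and -2.11 in 2003 and -3.95, -4.93 and -4.51 in 2005. All 3 passed the year difference with the letter block, at -2.43, -2.14 and -2.10, and none passed without it (limma adjusted p = 0.0645, 0.0861 and 0.0737). The 3 clones were joined for their like ratios, so that their like differences are not separate results. Their channels were less alike than their ratios. In cld26_a05 the cabinet channel was 1.04, 2.67 and 2.75 in 2003 and 2.502, 3.58 and 3.23 in 2005, whereas in cld25_d06 it was 3.13, 3.49 and 3.20 in 2003 and 2.01, 2.52 and 2.22 in 2005.

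Another set, with cld10_e07, drtg4-59 and sltg1-44, had its lowest values in plant B of 2003. Its medians were -1.30, -3.82 and -1.38 in 2003 and -2.09, -2.06 and -1.79 in 2005. In each of these clones the cabinet channel reached the scanner maximum in 3 to 13 of 36 spot readings, so that the ratios may be understated there. The remaining sets of 3 were shallower. The set of cld27_g05, drt13_d09 and cld23_b11 had medians between -1.73 and -0.63, that of drtg3-28, drt8_c09 and drt2_h04 between -1.67 and -0.56, and that of cld4_d08, cld12_d01 and slt9_e07 between -1.5002 and -0.99.

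Pairs showed other shapes. The pair cld23_e05 and sltg2-23 had -0.44 and -0.55 in plant A of 2003 and -0.48 and -0.33 in plant B of 2005, while all their other values lay between -3.29 and -1.87, so that they were closest to the cabinet in those plants. The pair cld28_c12 and drt1_c05 was lower in every plant of 2005, at -3.67 to -2.57, than in any of 2003, at -2.09 to -0.96. The pair cld18_e07 and slt14_h09 was lowest in plant C of both years, at -4.16 and -4.06 in 2003 and -3.02 and -3.01 in 2005.

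The dye effect, the log2 distance of each array of a plant from their mean, cancels in the plant mean and was not used by the selection. It passed an adjusted p of 0.05 in limma for 22 members (18%), against 15.3% of all cDNAs. Of these, 18 were brighter in Cy5, against 9.68% of all cDNAs, and 4 in Cy3, against 5.59%. With print-tip loess, which fits a curve to each spotting block, 1 member passed, against 0.304% of all cDNAs, and with the deposited processed values 4 passed, against 1.17%. Without plant C of 2003, A of 2005 or C of 2005, 12, 13 and 8 members passed, against 7.6%, 8.88% and 4.79% of all cDNAs. By size the leading members were cld11_a11, at 0.58 ± 0.48 (SD, n = 6 plants, limma adjusted p = 0.0275), and drt8_d06, at 0.41 ± 0.10 (SD, n = 6 plants, limma adjusted p = 0.00272). Both lost the call with print-tip loess, at adjusted p-values from limma of 0.169 and 0.0805. Under the other settings drt8_d06 kept it, and cld11_a11 lost it with the processed values (limma adjusted p = 0.193), without plant C of 2003 (0.0549) and without plant C of 2005 (0.0774). The normalized ratios of drt8_d06 were -0.64, -1.36 and -0.64 in 2003 and -1.21, -0.72 and -1.17 in 2005, the highest 2003 mean of all members, and those of cld11_a11 were -1.28, -2.43 and -3.02 in 2003 and -2.31, -2.30 and -2.70 in 2005.

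Members were brighter than other clones in the cabinet channel and somewhat dimmer in the field channel, as selection on the ratio favours. The cabinet signal over local background had a median of 52.3 (8.80 to 313) in members and 20.1 in the other clones of these name series, and the field signal 13.9 (3.20 to 86.5) and 18.3. No member was as dim as the spots without a name in the cabinet channel, against 3.97% of all cDNAs. In the field channel 3 were (2.46%, against 4.28% of all cDNAs), namely cld9_c03, cld8_a04 and drt7_a11. For cld9_c03, the dimmest member in the cabinet channel, the ratios were -0.98, -1.32 and -2.56 in 2003 and -2.08, -2.29 and -2.13 in 2005. For cld8_e12, the brightest, they were -1.46, -2.35 and -0.24 in 2003 and -3.69, -3.73 and -2.76 in 2005, and its cabinet spots were at the scanner maximum in 27 of 36 readings. In all, 12 members had at least 1 cabinet reading at the maximum, 101 of 4464 spot readings, and no field reading was. Such readings were not counted by clone over all cDNAs, so that they are not read as particular to the members.

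Replicate spots agreed closely. The spots of a member, each averaged over the 12 arrays, differed by 0.05 in the median from lowest to highest, as against 0.04 in the other clones. The widest range was 1.97, in cld25_f03. All spots of all 122 members lay below 0, as the selection on the average of these spots favours. Members were spread over the name series in similar shares, with 61 of 1974 clones in cld (3.09%), 24 of 793 in drt (3.03%), 12 of 477 in drtg (2.52%), 19 of 653 in slt (2.91%) and 6 of 145 in sltg (4.14%). The 104 members whose names give a plate lay on 48 of 57 plates, with at most 5 on a plate.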

How the data were processed

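The members, lists and sets were chosen with earlier results of these data known. Cauline leaf RNA of 6 field plants was measured on 12 two-colour cDNA arrays with cabinet RNA in channel 1 and field RNA in channel 2. The authors deposited QuantArray intensity values for spots and local background on a linear scale, not normalized. The authors also deposited a table of log10 ratios centred near 0 (column medians of -0.0188 to 0.0126), whose values followed the scanner log ratios at r = 0.933 to 0.992 and which entered as an alternative. Its normalization is not given in the sources. Each array has 14688 spots, 13449 of them with the 4279 cDNA names.

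Names were read without a trailing letter (G, F or W). The selection used intensities as given, from 1 to 143 spots per array being left out by the Ignore Filter. For the tests, limma 3.58.1 in R 4.3.3 applied normexp (offset 50) and loess, averaged spots and then each plant's arrays, and lmFit and eBayes fitted 1 mean per year (4 residual and 2.66 prior degrees of freedom), with Benjamini-Hochberg adjustment over all 4279 cDNAs. The Bayesian model of the study was not repeated. The procedure was tested on simulated data. Named clones were the 6 lowest, those next to the limit, the extremes of the year difference, of the range over plants, of the dye effect and of cabinet brightness, besides clones of the like-profile sets and of the channel shifts, chosen after their values were seen.

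The labels give a letter to each plant but not what it shares. When each plant was set against its year mean, the A plants of both years deviated together (r = 0.576 over all cDNAs), as did the B plants (0.243) and the C plants (0.314), while unlike letters gave -0.331 to 0.0515, and for that reason the fit with the letter as a replicate block is printed where it changes a call. This pairing is read from the data. Alternatives covered background, normalization, spot and brightness filters, call limits, blocks and each plant left out.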

Additional observations from a re-analysis of the deposited data

How the results depend on the processing

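The number of members was 268 at a limit of 1.5-fold and 30 at a limit of -2, and 105 to 151 with a plant left out. It was 140 with normexp and loess (116 shared), 136 with background subtraction (120 shared), 134 with the processed values (117 shared) and, in a setting chosen after seeing the data, 125 with trailing letters kept apart. The count of members that passed between the years was 0 in limma, against 1.59% of all cDNAs. With the plant letter as a replicate block it was 11 (9.02%, against 8.25%, or 353 of all cDNAs against 68 in limma). It was 9 with scan day as a random block (7.38%, against 9.82%) and 6 with arrays scaled (4.92%, against 6.78%). No background correction gave 4 (3.28%, against 3.93%), print-tip loess 2 (1.64%, against 2.2%) and the processed values 2 (1.64%, against 2.97%). At an unadjusted p of 0.01 it was 9 (7.38%, against 10.9%), and with a plant left out 0 to 4. Median centring, the spot filter and the filter on dim cDNAs left it at 0. The count lower than the cabinet in 2003 was 106, against 7.31% of all cDNAs, and 0 with the year fitted alone, against 0%. It was 67 to 94 without a 2003 plant (against 3.3% to 7.24%) and 82 to 88 without a 2005 plant (against 4.07% to 4.49%). The count for 2005 stayed between 83 and 122 under all settings run, against 5.49% to 19.3% of all cDNAs. The replicate block changed neither of these by more than 4. The dye count of 22, against 15.3% of all cDNAs, became 1 with print-tip loess (against 0.304%) and 4 with the processed values (against 1.17%). With a plant left out it was 8 to 22, against 4.79% to 13.6%. The causes of these changes were not tested. The number of plants a year limits the precision. Single ratios with saturated cabinet spots or field signals near that of unnamed spots are less certain.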

Other observations

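A pair of members was spotted under 2 trailing letters, whose meaning the files do not give. For cld27_f11 the spots of both letters gave log2 ratios of -2.49 and -2.58 over the 12 arrays. For cld25_f03 the 3 spots marked G had a mean of -0.70 (-0.74 to -0.67) and the 3 marked W a mean of -2.55 (-2.65 to -2.50), and the value used for the member is their average.

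Among the 13 clones that met both year means but had a plant at or above 0, cld21_f06, cld27_g02, cld3_b11 and sltg1-92 were alike over the plants, with no pair differing by an RMS of more than 0.4. Their normalized ratios had medians of 0.73, -3.43 and -1.14 in plants A, B and C of 2003 and -1.82, -2.87 and -3.17 in those of 2005, above 0 in plant A of 2003 alone.

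Names that read as neighbouring plate positions occurred in 3 pairs of members. The RMS difference was 0.217 for drt9_f03 and drt9_f04, 0.298 for cld26_b05 and cld26_a05, and 1.38 for cld25_d06 and cld25_e06.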
